A study of Homo sapiens with 9 samples.

Results

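The HLA class I and peptide loading genes were followed across 9 libraries of 786-O cells, an established line that was grown out of a human clear cell carcinoma of the kidney. They were picked out of the table by gene symbol: HLA-B, HLA-C, HLA-E, HLA-F, B2M, TAP1, TAP2, TAPBP and NLRC5. All 9 were found among the 61806 genes listed, each in 1 entry, and all 9 were among the 13562 genes that passed the filter on low counts.

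Class I molecules carry peptides from the inside of a cell to its surface, where cytotoxic T cells and natural killer cells read them. A heavy chain (HLA-B, HLA-C, HLA-E or HLA-F) pairs with the light chain beta-2-microglobulin, which B2M encodes. Peptides cut by the proteasome are pumped into the endoplasmic reticulum by the transporter TAP, a dimer of TAP1 and TAP2, and tapasin, encoded by TAPBP, holds the empty heavy chain beside that transporter until a peptide is loaded. NLRC5 is a coactivator that raises class I transcription through the S-X-Y module of these promoters, and the promoters also carry sites for interferon regulatory factors and NF-kB. Low class I expression is a known route by which tumour cells escape T cells.

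Polyadenylated RNA was sequenced from 3 libraries in each of 3 groups: cells labelled TRIM28 knockdown, cells labelled PARP1 knockdown, and a control labelled wild type. TRIM28 is a chromatin corepressor and PARP1 a polymerase of poly(ADP-ribose) that responds to DNA breaks, and each knockdown was set against the control and against the other. The reagent is written as siRNA in the treatment label and as shRNA in the description, and the control is called a negative control there but parental in the design text, so the kind of reagent and the handling of the control are uncertain. All libraries share 1 line and 1 batch label, how many reagents were used per target is not stated, and nothing says that replicates were separate cultures, so p-values measure only how these libraries vary, and that variation may be technical.

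Levels are given as TMM-scaled FPKM, the count divided by the summed exon length and by a library total scaled with edgeR's TMM factor. This puts libraries on 1 scale, whereas comparisons between genes also depend on the summed exon length listed for each gene. TRIM28 averaged 12.1 ± 1.70 in TRIM28 knockdown and 80.4 ± 7.66 in control, and PARP1 averaged 0.30 ± 0.0649 in PARP1 knockdown and 9.63 ± 1.29 in control (TMM-scaled FPKM, SD, n = 3 each). In TRIM28 knockdown PARP1 itself averaged 5.10 ± 0.0302, a log2 fold change of -0.92 ± 0.14 against control (edgeR, adjusted p = 3.61e-05). Genes of similar summed exon length had a median of -0.39 there. TRIM28 in PARP1 knockdown averaged 99.8 ± 2.31, a log2 fold change of 0.31 ± 0.13 (edgeR, adjusted p = 0.0433), and overlapped control on deposited FPKM. Total counts ran from 12840619 to 16346186 in TRIM28 knockdown, from 11963110 to 15629533 in PARP1 knockdown and from 18042542 to 20224374 in control. Every control library was thus deeper than every knockdown library. TMM factors averaged 1.00 ± 0.0214, 0.892 ± 0.0654 and 1.12 ± 0.0410 in the same groups (SD, n = 3). Each of the 9 genes had at least 226 counts in every library. The slope of log2 level per doubling of exon length was -0.0119 ± 0.0118 in TRIM28 knockdown, -0.138 ± 0.0368 in PARP1 knockdown and 0.150 ± 0.0688 in control (SD, n = 3), and control replicate 3, at 0.0725, lay nearest to the knockdowns. Of 6 leukocyte markers PTPRC and CD3E had 0 counts throughout and the others at most 6, while the renal marker PAX8 averaged 46.5 TMM-scaled FPKM in TRIM28 knockdown, 44.4 in PARP1 knockdown and 48.1 in control and passed in neither comparison. CA9, which marks clear cell carcinoma, was under 1 in deposited FPKM on average in every group, and NDUFA4L2 had at most 3 counts. As bulk RNA was measured, fewer cells of a type and less RNA per cell cannot be told apart.

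In control cells the light chain led the order of levels. B2M averaged 578 ± 47.0 TMM-scaled FPKM, followed by the classical heavy chains HLA-C at 378 ± 26.8 and HLA-B at 184 ± 14, and the nonclassical HLA-E at 138 ± 11.8 (SD, n = 3). By that level B2M ranked 58th, HLA-C 102nd and HLA-E 318th of the 13562 genes tested. Of the loading genes, TAP1 and TAPBP stood below these 4 and above HLA-F, with TAP1 at 29.1 ± 2.66 and TAPBP at 20.8 ± 0.613. HLA-F, at 3.15 ± 0.401, TAP2, at 2.42 ± 0.131, and NLRC5, at 1.28 ± 0.0333, closed the order, and B2M stood 451-fold above NLRC5. No neighbours in this order had overlapping control libraries, the closest pair being TAP2 and HLA-F, 1.30-fold apart.

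**Figure D1:**
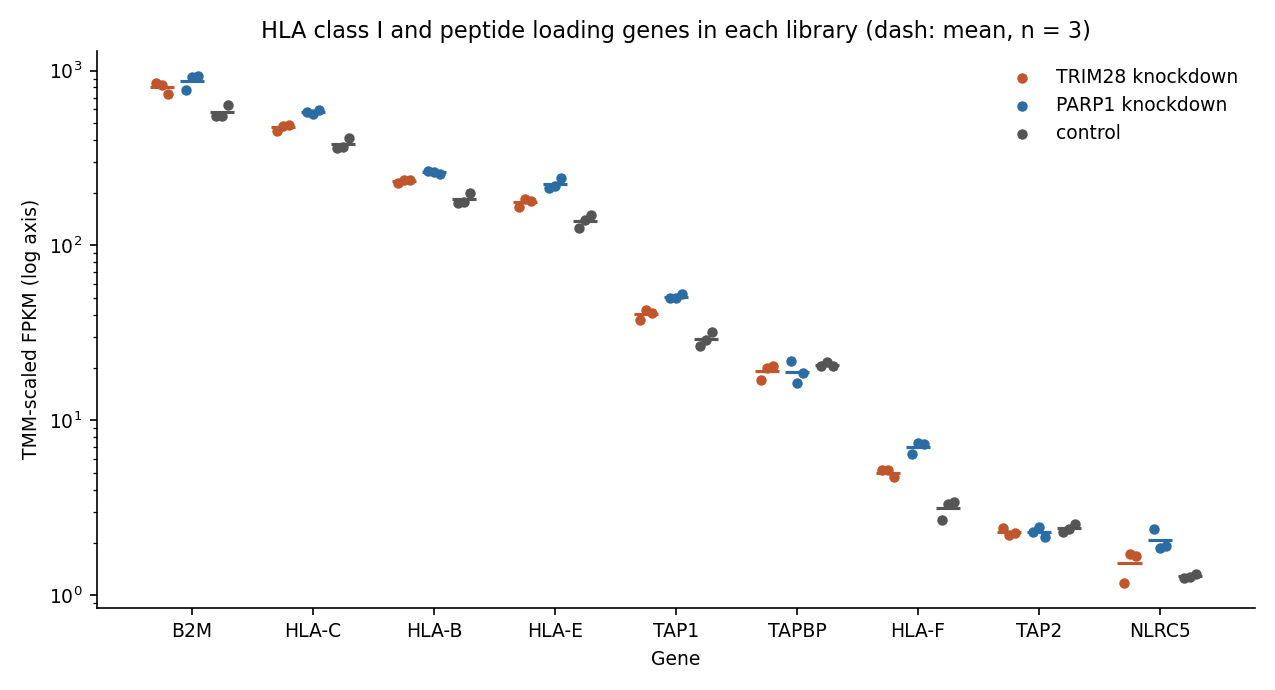
TMM-scaled FPKM (log axis) of the 9 genes in each library, ordered by control mean, with TRIM28 knockdown left, PARP1 knockdown in the middle and control right of each gene. Points are single libraries and dashes are means of 3. For B2M, HLA-C, HLA-B, HLA-E, TAP1 and HLA-F all knockdown points lie above all control points, while those of TAP2 and TAPBP mix with the control points.

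The promoters of 6 of these genes are shown because their members moved differently: HLA-C, HLA-F, B2M and TAP1 passed the test in both knockdowns, and TAP2 and TAPBP in neither. The windows run from 250 bases before to 50 after the RefSeq start site (GRCh38.p14) and are printed 5′ to 3′ on the strand of the gene. Capitals mark letters that match 1 of 4 motifs on either strand. These were the interferon-stimulated response element, searched as GAAANNGAAA, the CCAAT box, searched as CCAAT, the core of the cyclic AMP response element, searched as TGACG, and the NF-kB site, by its usual consensus, with overlapping matches joined. They lie at chr6:31272043-31272342 on the minus strand for HLA-C, chr6:29723184-29723483 on the plus strand for HLA-F and chr15:44711267-44711566 on the plus strand for B2M. Those of the loading genes lie on the minus strand, at chr6:32853655-32853954 for TAP1, the upstream one of its 2 windows, chr6:32838690-32838989 for TAP2 and chr6:33314029-33314328 for TAPBP.
HLA-C: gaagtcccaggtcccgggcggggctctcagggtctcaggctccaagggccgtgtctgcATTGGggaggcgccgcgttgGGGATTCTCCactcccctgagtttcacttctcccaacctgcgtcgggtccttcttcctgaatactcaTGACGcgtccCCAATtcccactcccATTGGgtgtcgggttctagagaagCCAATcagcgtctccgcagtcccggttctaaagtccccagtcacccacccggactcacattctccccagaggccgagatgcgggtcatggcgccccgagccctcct
HLA-F: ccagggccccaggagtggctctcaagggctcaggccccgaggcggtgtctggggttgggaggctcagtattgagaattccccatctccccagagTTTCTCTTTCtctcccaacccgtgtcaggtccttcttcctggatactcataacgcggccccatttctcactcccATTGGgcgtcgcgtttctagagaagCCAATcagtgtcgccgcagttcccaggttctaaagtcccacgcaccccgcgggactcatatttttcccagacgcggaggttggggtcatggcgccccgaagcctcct
B2M: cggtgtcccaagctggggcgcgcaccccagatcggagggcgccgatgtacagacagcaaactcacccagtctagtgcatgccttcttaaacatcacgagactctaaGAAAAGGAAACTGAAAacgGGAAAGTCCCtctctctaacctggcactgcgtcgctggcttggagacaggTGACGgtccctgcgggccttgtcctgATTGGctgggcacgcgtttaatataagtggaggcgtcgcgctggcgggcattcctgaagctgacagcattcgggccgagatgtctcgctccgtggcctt
TAP1: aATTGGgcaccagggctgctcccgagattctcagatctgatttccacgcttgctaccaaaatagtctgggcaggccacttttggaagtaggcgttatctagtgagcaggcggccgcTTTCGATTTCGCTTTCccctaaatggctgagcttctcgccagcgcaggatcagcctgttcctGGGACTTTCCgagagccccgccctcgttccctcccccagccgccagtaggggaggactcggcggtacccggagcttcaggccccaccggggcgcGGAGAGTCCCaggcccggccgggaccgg
TAP2: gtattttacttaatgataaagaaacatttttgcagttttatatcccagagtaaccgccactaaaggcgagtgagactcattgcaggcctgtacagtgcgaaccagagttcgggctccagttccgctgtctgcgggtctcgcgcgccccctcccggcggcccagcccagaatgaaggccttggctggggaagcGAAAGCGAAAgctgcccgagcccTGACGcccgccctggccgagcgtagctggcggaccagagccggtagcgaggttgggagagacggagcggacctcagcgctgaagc
TAPBP: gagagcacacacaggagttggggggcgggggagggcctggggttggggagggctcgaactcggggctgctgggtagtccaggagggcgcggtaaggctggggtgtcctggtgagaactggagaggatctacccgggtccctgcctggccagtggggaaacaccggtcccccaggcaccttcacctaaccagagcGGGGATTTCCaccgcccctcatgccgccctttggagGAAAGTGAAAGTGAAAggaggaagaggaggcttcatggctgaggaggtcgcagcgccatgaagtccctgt

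Of the 9 genes, 7 were matched to the RefSeq table, in 8 windows, as TAP1 has 2, and HLA-E and NLRC5 were not. The response element was found in 5 of the 8 windows, against 3.57% of all 35116 windows of the same length in that table. In B2M, TAPBP and TAP1 the match covers overlapping copies, from base -144 to -129, -20 to -5 and -134 to -119 of the start site. HLA-F held it at -156 to -147 and TAP2 at -58 to -49, whereas the HLA-B and HLA-C windows held no match to these letters. An NF-kB site was found in 5 of the 8 windows, against 11.3% of promoters, at -177 to -167 in HLA-B, -172 to -163 in HLA-C, -125 to -116 in B2M and -56 to -47 in TAPBP, and in TAP1 both at -72 to -63 and at 23 to 32. CCAAT boxes were found in 5 windows, against 34.6% of promoters, and TGACG in 4, against 24.6%. HLA-B carried both, with TGACG at -106 to -102, 1 base from its place in HLA-C at -105 to -101. A match is a description of letters, not of a bound site: TAPBP and TAP2, which did not pass in either knockdown, held the response element as well.

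In TRIM28 knockdown all 4 heavy chain genes, the light chain gene B2M and the transporter gene TAP1 rose, by 1.26-fold for HLA-C to 1.60-fold for HLA-F. The other transporter gene TAP2, the tapasin gene TAPBP and the coactivator gene NLRC5 did not pass. That made 6 of 9 higher and 0 lower at a Benjamini-Hochberg adjusted p below 0.05 over all 13562 genes (quasi-likelihood test of edgeR), where 10.3% of genes were higher and 17.5% lower. The same 6 had every TRIM28 knockdown library above every control library, which held for 21.2% of all genes. The median log2 fold change of the 9 was 0.35, against -0.02 over all genes tested. The count of 6 was 2 without control replicate 1 or control replicate 2, and 3 without any 1 TRIM28 knockdown replicate, without PARP1 knockdown replicate 2 or on unscaled library totals.

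In PARP1 knockdown the same 6 genes and NLRC5 rose, by 1.43-fold for HLA-B to 2.24-fold for HLA-F, and TAP2 and TAPBP did not pass. Here 7 of 9 were higher and 0 lower, where 27.1% of all genes were higher and 32.2% lower, and these 7 had libraries wholly above control, which held for 30.5% of genes. The median of the 9 was 0.61, against -0.07 over all genes. Both knockdowns were set against the same 3 control libraries, so the values of a gene in the 2 comparisons are not independent. The count stayed at 7 whichever single library was left out, and with library totals it was 5 higher and 2 lower.

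Among the heavy chains HLA-F, a nonclassical chain that can reach the surface without peptide, had the largest log2 fold changes. It stood at 5.18, 5.19 and 4.71 TMM-scaled FPKM in TRIM28 knockdown, at 6.45, 7.37 and 7.34 in PARP1 knockdown, and at 2.69, 3.32 and 3.43 in control. The 3 groups did not overlap, with PARP1 knockdown highest and control lowest. The log2 fold change was 0.67 ± 0.15 (SE, n = 3 per group) in TRIM28 knockdown (adjusted p = 0.00225) and 1.16 ± 0.15 in PARP1 knockdown (adjusted p = 6.41e-07). Both calls held in all 9 fits that left out a library and in the 12 other alternatives. HLA-F overlaps the tested antisense gene HLA-F-AS1, and the strand setting of the counting is not stated, so reads of the pair cannot be told apart.

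HLA-C, a classical chain that also binds killer cell receptors, stood at 453, 483 and 490.0 TMM-scaled FPKM in TRIM28 knockdown, at 577, 563 and 594 in PARP1 knockdown, and at 360.4, 365 and 409 in control. HLA-B, the other classical chain, stood at 229, 238 and 235 in TRIM28 knockdown, at 268, 262 and 257 in PARP1 knockdown, and at 174, 178 and 199.9 in control. In both genes the 3 groups separated in the same order as in HLA-F, and control replicate 3 was the highest control library. HLA-C had log2 fold changes of 0.33 ± 0.12 in TRIM28 knockdown (adjusted p = 0.0445) and 0.61 ± 0.12 in PARP1 knockdown (adjusted p = 1.25e-04). For HLA-B they were 0.35 ± 0.12 (adjusted p = 0.0340) and 0.51 ± 0.12 (adjusted p = 8.02e-04), and on library totals HLA-B had 0.19 in PARP1 knockdown and did not pass (adjusted p = 0.115). HLA genes resemble one another: 5.38% of the distinct 50-base stretches of HLA-C transcripts, 2.72% of those of HLA-B and 4.34% of those of HLA-E also occur in another gene of the annotation, so reads from such stretches are uncertain.

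HLA-E, a nonclassical chain that shows leader peptides of other class I chains to natural killer cells, stood at 167, 185 and 180.4 TMM-scaled FPKM in TRIM28 knockdown, at 212, 217 and 241 in PARP1 knockdown, and at 126, 139 and 149.5 in control. No library of 1 group fell within the range of another. Its log2 fold change was 0.36 ± 0.13 in TRIM28 knockdown (adjusted p = 0.0339) and 0.69 ± 0.13 in PARP1 knockdown (adjusted p = 4.10e-05). In TRIM28 knockdown the calls of HLA-B, HLA-C and HLA-E ended in the same 6 of the 9 fits with a library left out: control replicate 1, control replicate 2, any TRIM28 knockdown replicate, or PARP1 knockdown replicate 2. In those 6 fits the log2 fold changes stayed between 0.33 and 0.37 for HLA-B, 0.32 and 0.36 for HLA-C, and 0.32 and 0.40 for HLA-E.

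The shares of the 4 heavy chains, whose sizes also depend on the summed exon lengths, moved little between groups. HLA-C made up 53.3% ± 0.459 of their summed TMM-scaled FPKM in TRIM28 knockdown, 53.97% ± 0.30 in PARP1 knockdown and 53.8% ± 0.553 in control (SD, n = 3). HLA-B made up 26.3% ± 0.496 in TRIM28 knockdown, 24.5% ± 1.02 in PARP1 knockdown and 26.1% ± 0.169 in control, and its share was lower in every PARP1 knockdown library than in any control library. HLA-F was the smallest part, with every knockdown library above control: 0.564% ± 0.0450 in TRIM28 knockdown, 0.658% ± 0.0481 in PARP1 knockdown and 0.447% ± 0.0396 in control. The sum itself was 892 ± 32.9 in TRIM28 knockdown, 1071 ± 25.7 in PARP1 knockdown and 703.5 ± 51.8 in control.

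B2M, the common light chain, stood at 845, 827 and 731 TMM-scaled FPKM in TRIM28 knockdown, at 771, 919 and 929.7 in PARP1 knockdown, and at 549.5, 553 and 632.5 in control. Every knockdown library exceeded every control library, while the knockdowns overlapped each other. The log2 fold change was 0.47 ± 0.13 in TRIM28 knockdown (adjusted p = 0.00860) and 0.59 ± 0.13 in PARP1 knockdown (adjusted p = 2.98e-04). Without control replicate 2 the call in TRIM28 knockdown ended (0.46, adjusted p = 0.0526). B2M lies on chromosome 15, away from the HLA region, and none of its 50-base stretches occurs in another gene.

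Set against the light chain, the summed heavy chains overlapped between the groups. Their sum over B2M was 1.01, 1.10 and 1.25 in TRIM28 knockdown, 1.38, 1.14 and 1.18 in PARP1 knockdown, and 1.21, 1.24 and 1.21 in control. The 2 knockdowns had a wider spread than control, with TRIM28 knockdown replicate 1 lowest and PARP1 knockdown replicate 1 highest. As these ratios are scores over the chosen genes, no p is given for them.

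**Figure D2:**
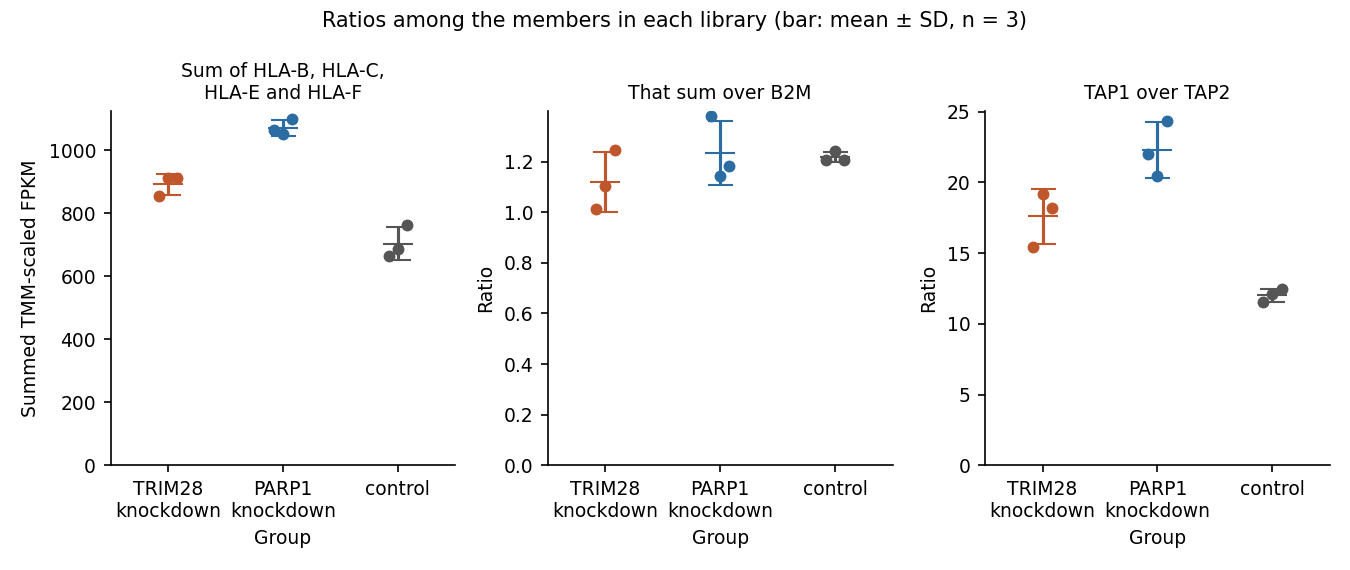
Summed TMM-scaled FPKM of HLA-B, HLA-C, HLA-E and HLA-F, that sum over B2M, and TAP1 over TAP2, in TRIM28 knockdown, PARP1 knockdown and control from left to right. Points are libraries, and bars give mean ± SD with n = 3 on axes that start at 0. The sum and the TAP1 over TAP2 ratio lie above control in all 6 knockdown libraries, and the ratio to B2M overlaps between groups.

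For the transporter, TAP1 passed the test in both knockdowns and TAP2 in neither. TAP1 stood at 37.4, 42.5 and 40.9 TMM-scaled FPKM in TRIM28 knockdown, at 50.3, 49.9 and 52.6 in PARP1 knockdown, and at 26.7, 28.8 and 31.9 in control, with no overlap between any 2 groups. TAP2 stood at 2.42, 2.22 and 2.25 in TRIM28 knockdown, at 2.29, 2.44 and 2.16 in PARP1 knockdown, and at 2.31, 2.38 and 2.56 in control, and all groups overlapped. TAP1 rose by 0.47 ± 0.13 on the log2 scale in TRIM28 knockdown (adjusted p = 0.00806) and by 0.81 ± 0.13 in PARP1 knockdown (adjusted p = 6.75e-06). TAP2 had -0.07 ± 0.14 in TRIM28 knockdown (95% interval -0.37 to 0.22, adjusted p = 0.734) and -0.07 ± 0.14 in PARP1 knockdown (-0.37 to 0.22, adjusted p = 0.673). TAP1 lost its call in TRIM28 knockdown without control replicate 1 (0.43, adjusted p = 0.0601).

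The ratio of TAP1 to TAP2, both per length, was higher in all 6 knockdown libraries: 15.4, 19.2 and 18.2 in TRIM28 knockdown, 21.98, 20.4 and 24.4 in PARP1 knockdown, and 11.5, 12.1 and 12.5 in control. No knockdown library reached down to the control range, and the ratio was highest in PARP1 knockdown. With the length trend removed the log2 fold changes lay closer, at 0.54 for TAP1 and 0.24 for TAP2 in TRIM28 knockdown, and at 0.95 and 0.46 in PARP1 knockdown, where TAP2 then passed as higher (adjusted p = 0.0100). The 2 genes are neighbours in the class II part of the HLA region, TAP1 at chr6:32845209-32853816 and TAP2 at chr6:32821833-32838739, both on the minus strand (GRCh38). TAP1 overlaps PSMB9 and PSMB8-AS1 on the opposite strand, TAP2 overlaps a tested gene without a symbol on its own strand, and 31.3% of the 50-base stretches of TAP2 occur in another gene, so the level of TAP2 is the least certain of the 9. TAP2 also has the longer exons, 10357 bases against 4738 for TAP1.

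TAPBP, which encodes tapasin, stood at 17.1, 19.9 and 20.6 TMM-scaled FPKM in TRIM28 knockdown, at 21.7, 16.3 and 18.7 in PARP1 knockdown, and at 20.6, 21.5 and 20.4 in control. All groups overlapped. The log2 fold change was -0.12 ± 0.13 in TRIM28 knockdown (95% interval -0.39 to 0.16, adjusted p = 0.540) and -0.14 ± 0.13 in PARP1 knockdown (-0.41 to 0.14, adjusted p = 0.38). On the deposited FPKM, which divides by unscaled library totals, TAPBP averaged 19.2 ± 1.78 in TRIM28 knockdown, 16.9 ± 3.60 in PARP1 knockdown and 23.3 ± 1.28 in control, and TAP2 averaged 2.30 ± 0.141, 2.05 ± 0.203 and 2.70 ± 0.0451 in the same groups. Both then had every knockdown library below every control library, 2 of the 9 genes, as did 33.2% of all genes in TRIM28 knockdown and 44.0% in PARP1 knockdown. Library totals shifted the median log2 fold change of all genes to -0.18 in TRIM28 knockdown and -0.39 in PARP1 knockdown, close to the -0.40 of TAP2 and -0.46 of TAPBP that passed as lower in PARP1 knockdown on that scale.

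NLRC5, the coactivator, stood at 1.18, 1.73 and 1.67 TMM-scaled FPKM in TRIM28 knockdown, at 2.37, 1.87 and 1.92 in PARP1 knockdown, and at 1.25, 1.28 and 1.32 in control. TRIM28 knockdown replicate 1 lay below all control libraries and replicates 2 and 3 above them, whereas every PARP1 knockdown library lay above control. The log2 fold change was 0.25 ± 0.17 in TRIM28 knockdown (95% interval -0.09 to 0.59, adjusted p = 0.272) and 0.68 ± 0.17 in PARP1 knockdown (adjusted p = 9.37e-04). On library totals the value in PARP1 knockdown was 0.37 (adjusted p = 0.0911).

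In TRIM28 knockdown against PARP1 knockdown 2 of the 9 genes passed the test, both lower in TRIM28 knockdown, HLA-F (log2 fold change -0.49 ± 0.15, adjusted p = 0.0207) and TAP1 (-0.34 ± 0.13, adjusted p = 0.04996). Of all genes 11.9% were lower and 13.2% higher here. HLA-B, HLA-C, HLA-E and NLRC5 also had every TRIM28 knockdown library below every PARP1 knockdown library, which made 6 of 9, against 18.7% of all genes. On deposited FPKM this held for 3 of 9, HLA-E, HLA-F and TAP1. The share of all genes was not counted on that scale, so the 3 cannot be set against it. Removing both length and GC trends turned HLA-C to 0.19 (log2 fold change) and gave 0.088 for HLA-E and 0.041 for HLA-B, and on library totals that of HLA-B was 0.0026. With TMM factors these 4 did not pass: HLA-E had -0.33 (95% interval -0.59 to -0.08, adjusted p = 0.0515), NLRC5 had -0.44 (adjusted p = 0.0548), HLA-C had -0.28 (adjusted p = 0.0913) and HLA-B had -0.16 (-0.41 to 0.09, adjusted p = 0.345). B2M, with -0.12 (-0.39 to 0.14, adjusted p = 0.513), TAPBP, with 0.02 (-0.25 to 0.30), and TAP2, whose means were equal at 2.30, overlapped between the knockdowns. The count of 2 became 0 without any 1 TRIM28 knockdown replicate or without PARP1 knockdown replicate 2 or 3, 1 without control replicate 2 and 5 without control replicate 3, and it was 0 with library totals. In the fits with a count of 0 between 1 and 5 members had an unadjusted p below 0.05 by edgeR, and DESeq2 called 5.

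Fold changes across all genes moved with gene length and GC content, and the 9 genes were placed against genes like them. Genes were put into 10 equal classes of summed exon length, and all 9 members lay above the median of their own class in both knockdowns, while 7 lay above the median of their GC class. HLA-F, HLA-B and TAP1 share a length class whose median was -0.02 in TRIM28 knockdown and -0.09 in PARP1 knockdown (log2 fold change). HLA-C, the shortest of the 9 at 2507 bases, lies in a class with medians of 0.26 in TRIM28 knockdown and 0.50 in PARP1 knockdown, close to its own 0.33 and 0.61. NLRC5, the longest at 12386 bases, belongs to a class with medians of -0.39 and -0.67, and TAP2 to one with -0.31 and -0.56. By GC content HLA-B, HLA-C and HLA-E share a class with medians of 0.22 in TRIM28 knockdown and 0.50 in PARP1 knockdown, and B2M, at 41.2% GC, lies in one with -0.42 and -0.73.

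With the length and GC trends of each library removed, the genes split. B2M (0.60 in TRIM28 knockdown, 0.82 in PARP1 knockdown), HLA-F (0.54 and 0.90), TAP1 (0.43 and 0.80) and NLRC5 (0.41 and 0.93) were past the threshold in both knockdowns. HLA-C turned to -0.06 in TRIM28 knockdown and to -0.25 in PARP1 knockdown, where it passed as lower (adjusted p = 0.0395). HLA-E stood at 0.02 and -0.07 and HLA-B at 0.20 and 0.16, none of them past the threshold. TAP2 had 0.16 in TRIM28 knockdown and 0.37 in PARP1 knockdown, the second past the threshold (adjusted p = 0.0187), and TAPBP had -0.15 and -0.39, the second also past it, as lower. The part of length and GC in these results was not tested beyond these values.

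**Figure D3:**
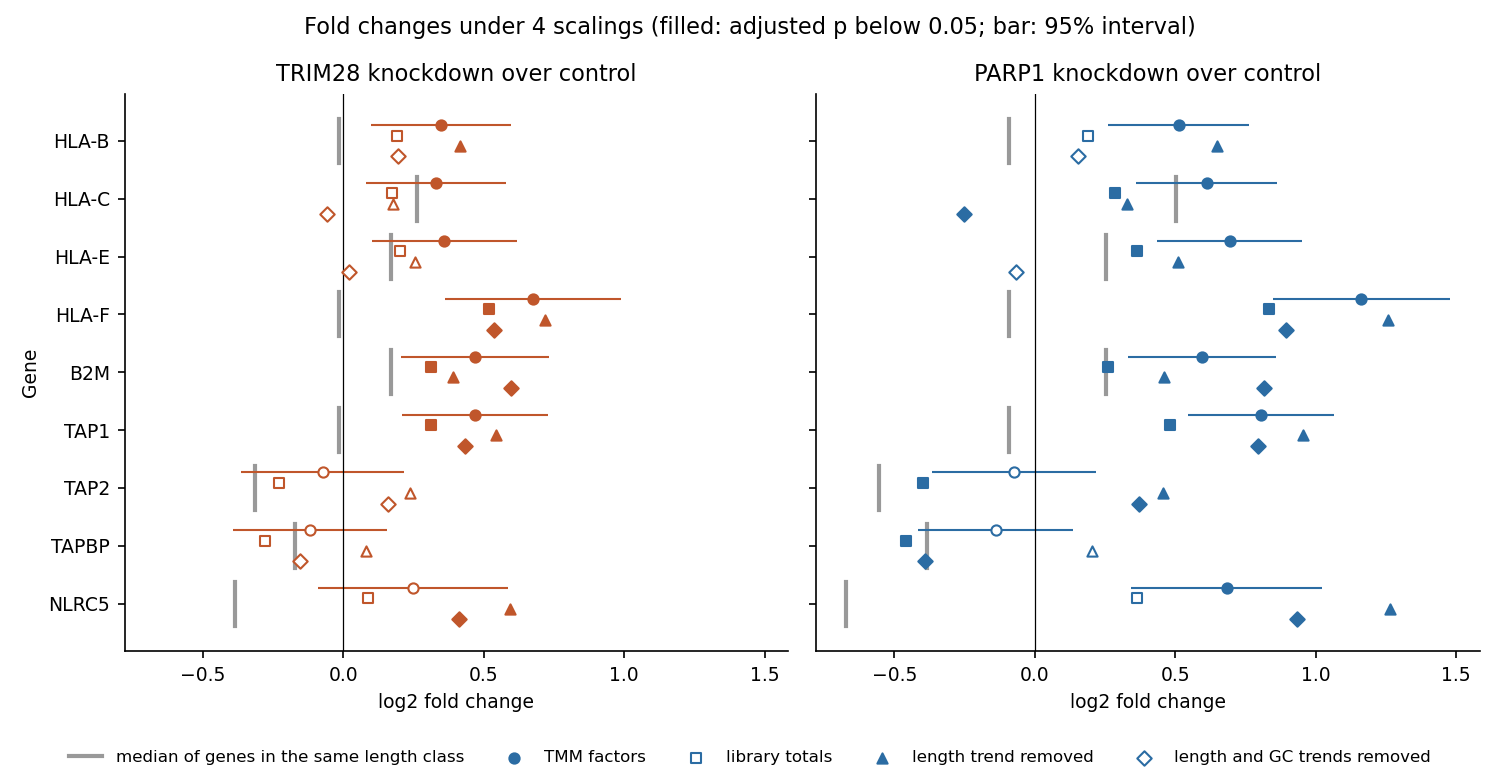
Log2 fold change of each gene over control in TRIM28 knockdown (left) and PARP1 knockdown (right) under TMM factors, library totals, length trend removed, and length and GC trends removed. Filled symbols are past an adjusted p of 0.05, horizontal bars are 95% intervals under TMM factors, and grey ticks are the median of all genes in the same length class. HLA-F, B2M and TAP1 are filled under all 4 scalings in both panels, and HLA-C crosses 0 once length and GC trends are removed.

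Beyond the 9, 6 lists of the wider pathway held 54 genes, 45 of them tested, with calls in both directions. In TRIM28 knockdown 10 rose (22.2%, against 10.3% of all genes), 12 fell (26.7%, against 17.5%) and 23 did not pass. In PARP1 knockdown 15 rose (33.3%, against 27.1%), 16 fell (35.6%, against 32.2%) and 14 did not pass, shares near those of all genes. On library totals the split was 1 higher and 14 lower in TRIM28 knockdown, and 9 higher and 20 lower in PARP1 knockdown. The inducible proteasome subunits, which trim proteins into class I peptides, rose: PSMB8, PSMB9, PSMB10 and the activator genes PSME1 and PSME2 passed as higher in both, 5 of 5 (median 0.51 in TRIM28 knockdown and 0.98 in PARP1 knockdown). On library totals only PSMB8 of the 5 passed in TRIM28 knockdown, and PSME1 did not pass in PARP1 knockdown (0.25, adjusted p = 0.0539). PSMB9, next to TAP1, stood at 25.9 ± 2.10 TMM-scaled FPKM in TRIM28 knockdown, 42.1 ± 10.3 in PARP1 knockdown and 17.6 ± 3.12 in control, with log2 fold changes of 0.56 ± 0.16 and 1.26 ± 0.16. PSMB8 had 0.56 ± 0.14 in TRIM28 knockdown and 1.01 ± 0.14 in PARP1 knockdown. With length and GC trends removed PSMB10 stood at 0.03 and -0.10 and PSME1 at 0.10 and 0.13, none past the threshold, and PSMB9 did not pass in TRIM28 knockdown (0.44, adjusted p = 0.0629).

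Most chaperones and trimming enzymes fell. In TRIM28 knockdown 5 of 7 fell (71.4%, against 17.5% of all genes) and 2 did not pass, and in PARP1 knockdown 5 fell (71.4%, against 32.2%), 1 rose and 1 did not pass. ERAP1, which trims peptides inside the endoplasmic reticulum, stood at 0.530 ± 0.122 TMM-scaled FPKM in TRIM28 knockdown, 0.240 ± 0.102 in PARP1 knockdown and 1.42 ± 0.272 in control, with log2 fold changes of -1.41 ± 0.25 and -2.54 ± 0.28. CANX, which encodes the chaperone calnexin that folds new heavy chains, had -1.33 ± 0.16 in TRIM28 knockdown and -2.01 ± 0.16 in PARP1 knockdown. UGGT1, a sensor of misfolded glycoproteins, fell in TRIM28 knockdown (-0.88 ± 0.19), and PDIA3, a thiol oxidoreductase of the loading complex, fell in PARP1 knockdown (-1.15 ± 0.16), each also past the threshold in the other knockdown. TAPBPL, a relative of tapasin that edits peptides, rose in PARP1 knockdown (0.50 ± 0.15). With length and GC trends removed CANX had -0.79 in TRIM28 knockdown and -1.03 in PARP1 knockdown and ERAP1 had -0.96 and -1.72, all past the threshold. In TRIM28 knockdown the other 3 falls then missed it, UGGT1 (-0.33), PDIA3 (-0.30) and ERAP2 (-0.22), and in PARP1 knockdown TAPBPL had 0.056 and missed it, while CALR, the chaperone calreticulin, passed as lower (-0.35, adjusted p = 0.00460).

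**Figure D4:**
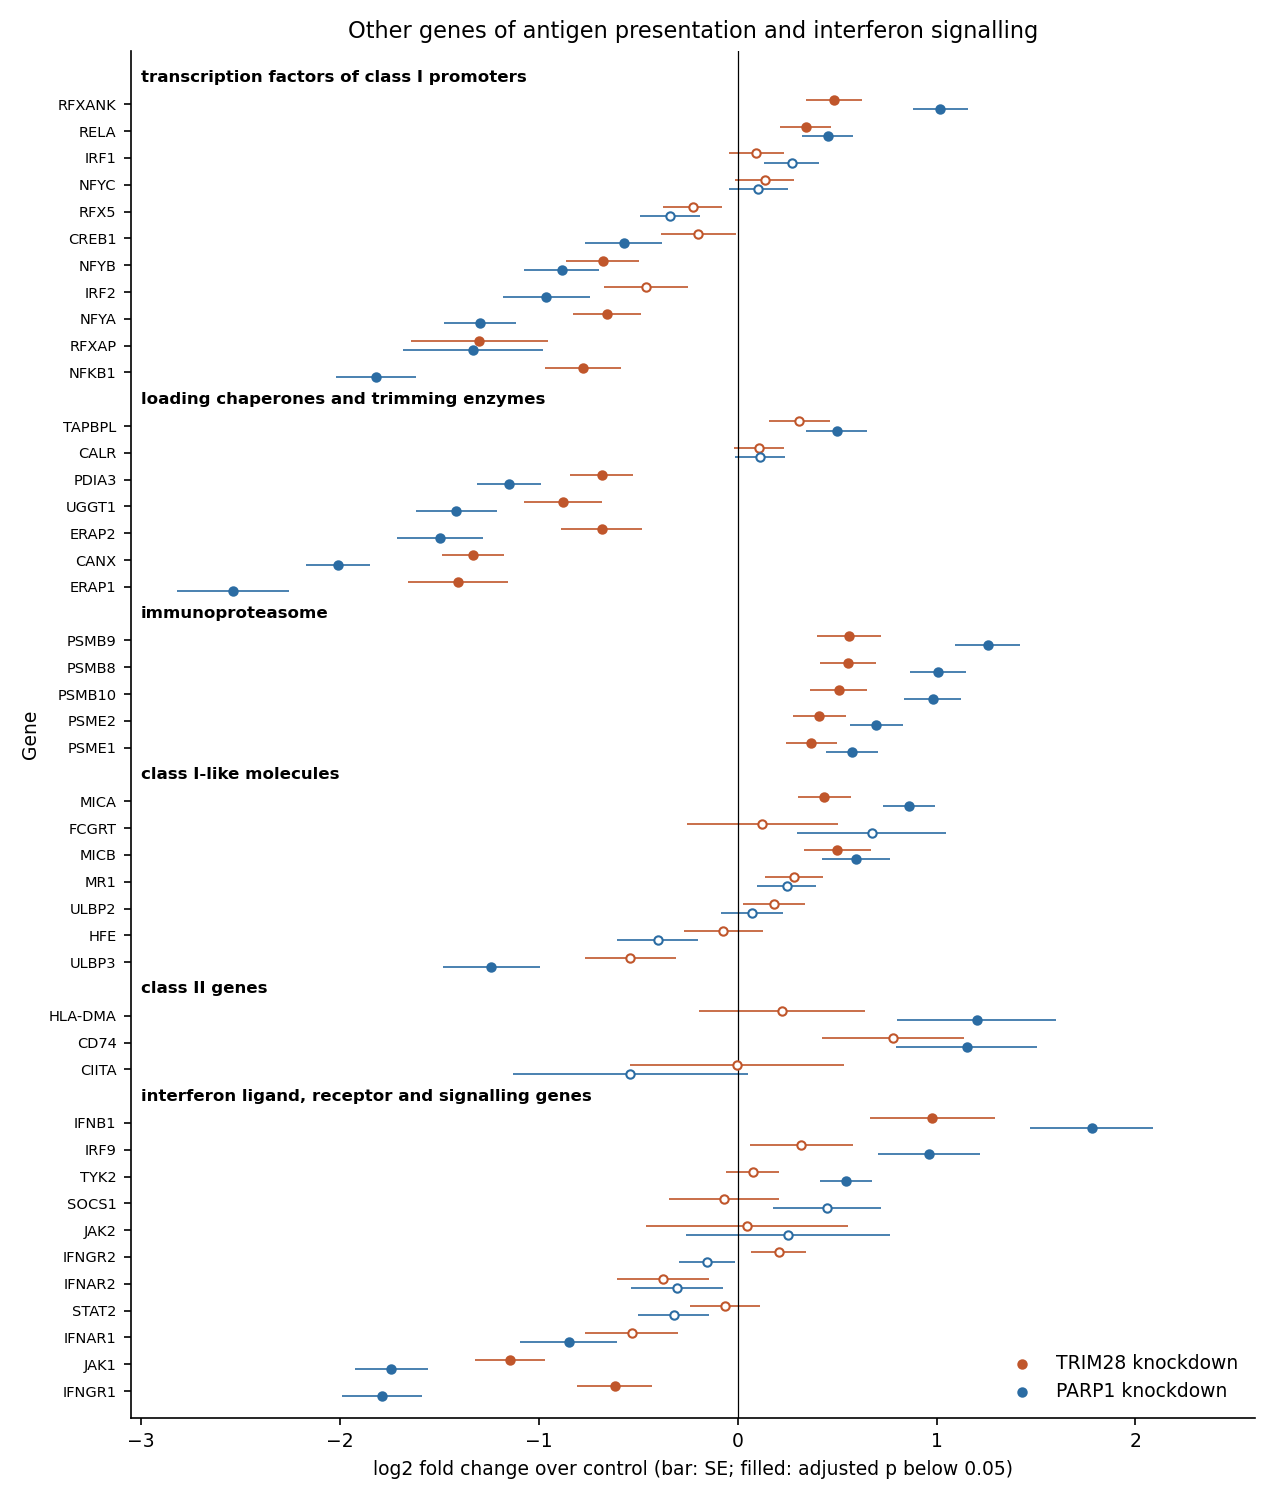
Log2 fold change over control of tested genes, all but 1 of the 45, from 6 antigen presentation and interferon lists in TRIM28 knockdown (orange) and PARP1 knockdown (blue), with SE bars and filled symbols at an adjusted p below 0.05. The 5 immunoproteasome genes lie right of 0, and 5 of the 7 chaperone and trimming genes and the factor NFKB1 lie left of 0.

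Among 12 genes of transcription factors that act on class I promoters, TRIM28 knockdown had 2 higher (16.7%, against 10.3% of all genes), 5 lower (41.7%, against 17.5%) and 5 not passing. PARP1 knockdown had 2 higher (16.7%, against 27.1%), 7 lower (58.3%, against 32.2%) and 3 not passing. The NF-kB subunit genes parted: NFKB1 fell (-0.78 ± 0.19 and -1.82 ± 0.20) and RELA rose (0.34 ± 0.13, adjusted p = 0.0479, and 0.45 ± 0.13). NFYA, of the CCAAT-binding factor, fell (-0.66 ± 0.17 and -1.30 ± 0.18). Of the RFX complex that binds the S-X-Y module, RFXANK rose (0.48 ± 0.14 and 1.02 ± 0.14) and RFXAP fell (-1.30 ± 0.34 and -1.33 ± 0.35). RFX5, of the same complex, passed in neither (-0.23 and -0.34). With length and GC trends removed RFXANK (0.10 and 0.20) and RELA (0.23 and 0.11) passed in neither, and NFKB1 (-0.34) and NFYA (-0.39) did not pass in TRIM28 knockdown. RFXAP still passed as lower in both (-1.29 and -1.36). On library totals RELA passed in neither (0.19 and 0.13), and RFXANK did not pass in TRIM28 knockdown (0.33).

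Of 11 interferon ligand, receptor and signalling genes, TRIM28 knockdown had 1 higher (9.09%, against 10.3% of all genes), 2 lower (18.2%, against 17.5%) and 8 not passing. PARP1 knockdown had 3 higher (27.3%, against 27.1%), 3 lower (27.3%, against 32.2%) and 5 not passing, so the shares were close to those of all genes. IFNB1, which encodes interferon beta, stood at 3.92 ± 0.577 TMM-scaled FPKM in TRIM28 knockdown, 6.91 ± 3.00 in PARP1 knockdown and 1.98 ± 0.531 in control (log2 fold changes 0.98 ± 0.32 and 1.78 ± 0.31). Its call in TRIM28 knockdown was lost on library totals (0.82, adjusted p = 0.0679) and with the length trend removed (0.69, adjusted p = 0.0923). The receptor gene IFNGR1 (-0.62 ± 0.19 and -1.79 ± 0.20) and the kinase gene JAK1 (-1.15 ± 0.18 and -1.74 ± 0.18) fell in both. In PARP1 knockdown IRF9, a DNA-binding factor of interferon signalling, rose (0.96 ± 0.26), as did the kinase gene TYK2 (0.54 ± 0.13), and the receptor gene IFNAR1 fell (-0.85 ± 0.24). The rise of TYK2 was lost on library totals (0.22, adjusted p = 0.166). That fall of IFNAR1 was -0.01 with length and GC trends removed, and that of IFNGR1 in TRIM28 knockdown was -0.41 and not past the threshold. Over all 45 pathway genes, the count of 22 past the threshold in TRIM28 knockdown became 9 when control replicate 1 was left out, 11 for control replicate 2 and 13 for TRIM28 knockdown replicate 2.

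Of 7 tested class I-like genes, 2 rose in both knockdowns (28.6%, against 10.3% of all genes in TRIM28 knockdown and 27.1% in PARP1 knockdown). The other 5 missed the threshold in TRIM28 knockdown, and in PARP1 knockdown 1 fell and 4 missed it. MICA and MICB, stress ligands for natural killer cells encoded beside HLA-B, had 0.44 ± 0.13 and 0.50 ± 0.17 in TRIM28 knockdown, and 0.86 ± 0.13 and 0.59 ± 0.17 in PARP1 knockdown. ULBP3, another such ligand encoded outside the HLA region, had -0.54 ± 0.23 in TRIM28 knockdown, not past the threshold, and fell in PARP1 knockdown (-1.24 ± 0.24). On library totals MICA (0.28) and MICB (0.35) missed the threshold in TRIM28 knockdown, as did MICB in PARP1 knockdown (0.28). With length and GC trends removed MICB missed it in TRIM28 knockdown (0.36), ULBP3 passed as lower there (-0.77), and MR1, which presents vitamin metabolites to T cells, passed as higher in both (0.69 and 1.05).

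Class II genes, which present peptides on professional antigen-presenting cells, were nearly silent. HLA-DPB1 and HLA-DQA1 had 0 counts in all libraries and HLA-DRA at most 2, and 3 of the 10 on the list passed the filter. CD74, the invariant chain, had 0.497 ± 0.136 TMM-scaled FPKM in TRIM28 knockdown, 0.639 ± 0.121 in PARP1 knockdown and 0.285 ± 0.136 in control, a log2 fold change of 0.78 ± 0.36 in TRIM28 knockdown (adjusted p = 0.0998) and 1.15 ± 0.35 in PARP1 knockdown (adjusted p = 0.00680). HLA-DMA, which edits class II peptides, rose in PARP1 knockdown (1.20 ± 0.40, adjusted p = 0.0115). Both of these rises missed the threshold with length and GC trends removed (0.78 for CD74 and 0.88 for HLA-DMA).

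Profiles over the 9 libraries were compared by the root mean square difference of centred log2 CPM, over 8454 genes with a symbol and a mean FPKM of at least 1. Within the set HLA-C and HLA-E were closest (0.0579), followed by HLA-E and TAP1 (0.0612) and by HLA-B and HLA-C (0.0622), and HLA-F and TAPBP were farthest apart (0.574). B2M was nearest to PARK7 on chromosome 1 (0.0211), HLA-C to COLGALT1 on chromosome 19 (0.0304), HLA-E to ARFGAP2 on chromosome 11 (0.0326) and HLA-B to SMARCB1 on chromosome 22 (0.0338). TAP1 was nearest to MTMR14 (0.0437), TAPBP to PRR12 (0.0476), TAP2 to the pseudogene RPL6P27 (0.0603), HLA-F to PPP1R14B-AS1 (0.0805) and NLRC5 to ZGPAT (0.0808). Each of the 9 was closer to a gene outside the set than to another member. As 8454 genes outside the set were searched and far fewer members, this cannot show whether the members share a profile. Such closeness over 9 shared libraries is a description only.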

How the data were processed

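RNA of 786-O cells was sequenced on a NovaSeq instrument after poly(A) selection with a directional kit, per the labels' protocols. The submitters' processing notes name GRCh38, the aligner STAR 2.7.9a and the counter featureCounts 2.0.1, with FastQC 0.11.9 and Trim Galore 0.6.6, and R 4.0.3 with DESeq2 1.30.0. The annotation release and strand setting are not stated. For each gene the authors deposited a read count, a whole number that is not normalized, per the file headers. FPKM values per gene, scaled by library total and exon length, were also deposited, per the file headers. Coordinates and summed exon lengths were taken from the same table.

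Counts of 13562 genes past edgeR's low-count filter were tested with edgeR 4.0.16 (R 4.3.3), by the quasi-likelihood test with TMM factors, in 1 fit of 9 libraries and 3 groups. That fit left 6 residual degrees of freedom, with a coefficient of variation between replicates of 0.149. Tests were two-sided and adjusted over all tested genes (Benjamini-Hochberg, 0.05), and intervals are 95% intervals of the fit. Alternatives used DESeq2 1.42.0, limma 3.58.1 on log2(FPKM + 1) or log2(FPKM + 0.1), which understates changes of low genes, and lowess (span 0.3) for length and GC trends. GC content was known for 98.7% of tested genes. The fits were tested on simulated data. Replicate libraries were checked for duplicates and all differed beyond sampling noise. The same-numbered libraries were not taken as pairs.

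The members and gene lists were chosen with earlier results of these data known. The text names all 9 members, TRIM28 and PARP1, up to 3 genes per direction and knockdown of each list by adjusted p, and for each member the gene of most similar profile. HLA-DPB1, HLA-DQA1, HLA-DRA, PSME1, PSME2, RFXAP, RFX5 and the markers were named after their values were seen. The values of 1 gene of the lists are not reported here, though the list counts include it. Figures were drawn with Python 3.11.15 and matplotlib 3.10.9.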

Additional observations from a re-analysis of the deposited data

How the results depend on the processing

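In TRIM28 knockdown the count of 6 members higher than control was 3 with library totals, 3 with no filter on low counts, 3 with limma on log2(FPKM + 1) and on log2(FPKM + 0.1), and 1 with limma without a filter. With 1 library left out it lay between 2 and 6. It was 5 with the length trend and 4 with length and GC trends removed. In PARP1 knockdown the count was 7 to 8 under every alternative, but with library totals, limma or both trends removed it held 5 higher and 2 lower. The genes differed: TAP2 and TAPBP were lower with library totals or limma, and HLA-C and TAPBP with both trends removed. With both trends removed TAP2 and NLRC5 were among the 5 higher, in place of HLA-C and HLA-E. Between the knockdowns the count of 2 was 5 with DESeq2, 4 with its size factors, 4 with at least 10 counts in 3 libraries, 1 with the compared groups alone and 0 with library totals, no filter on low counts or any limma fit, where 1, 5 and 1 to 2 members had an unadjusted p below 0.05. It ran from 0 to 5 when single libraries were left out.

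Of the pathway genes, 22 passed in TRIM28 knockdown, against 6 with limma without a filter, 11 with length and GC trends removed and 9 to 26 with single libraries left out. Between the knockdowns 17 passed, against 11 with limma on log2(FPKM + 1), 0 with limma without a filter (19 at an unadjusted p below 0.05), 9 with both trends removed and 6 to 22 with single libraries left out. Over all genes 3768 passed in TRIM28 knockdown, against 2353 with limma on log2(FPKM + 0.1), 1069 with limma without a filter and 1537 to 4935 with single libraries left out. Between the knockdowns 3407 passed, against 63 with limma without a filter, 1850 with both trends removed and 1654 to 4714 with single libraries left out. Library totals gave 453 higher and 2856 lower genes in TRIM28 knockdown (1394 and 2374 with TMM factors), 2024 and 5803 in PARP1 knockdown (3681 and 4361), and 2350 and 640 between the knockdowns (1795 and 1612).

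These log2 fold changes turned sign, and the cause was not tested. In TRIM28 knockdown HLA-C had -0.058 with both trends removed, TAP2 had 0.24 with the length trend and 0.16 with both removed, and TAPBP had 0.082 with the length trend removed. In PARP1 knockdown HLA-C had -0.25, HLA-E -0.067 and TAP2 0.37 with both removed, TAP2 0.46 and TAPBP 0.21 with the length trend removed, and TAP2 ranged from -0.12 to 0.012 with single libraries left out, the highest without control replicate 3. Between the knockdowns HLA-B had 0.0026 with library totals, 0.0065 with limma on log2(FPKM + 1) with and without a filter, 0.0066 with limma on log2(FPKM + 0.1) and 0.041 with both trends removed. HLA-C had 0.19 and HLA-E 0.088 with both trends removed, and B2M had 0.0505 with library totals, 0.0484 with limma on log2(FPKM + 1) with and without a filter and 0.0485 with limma on log2(FPKM + 0.1). TAP2 had -0.0106 with DESeq2, -0.0226 with its size factors, -0.0199 with at least 10 counts, -0.0066 with the groups alone, -0.22 with the length trend and -0.21 with both trends removed, and -0.041 to 0.047 with single libraries left out. TAPBP had -0.0013 with size factors, -1.1e-04 with at least 10 counts, -0.12 with the length trend removed and -0.074 to 0.14 with single libraries left out.

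With the replicate number as a block, 6, 7 and 3 members passed in the 3 comparisons, as did 4085, 8071 and 3662 genes. Deviations of same-numbered libraries had correlations of -0.08 to 0.14, so the numbers were not read as pairs. TAP2, NLRC5 and HLA-F had the fewest counts of the 9, 226 to 576 a library, and also the widest standard errors. Whether depth accounts for those errors was not tested.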

Other observations

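The 7 members on chromosome 6 lie among many other genes of the HLA region. Between the start of HLA-F and the end of TAPBP the table lists 322 genes, 99 of them tested, with the members left out of both counts. In TRIM28 knockdown 20 of the 99 rose (20.2%, against 10.3% of all genes), 6 fell (6.06%, against 17.5%) and 73 did not pass, with a median log2 fold change of 0.22. In PARP1 knockdown 44 rose (44.4%, against 27.1%), 12 fell (12.1%, against 32.2%) and 43 did not pass, with a median of 0.46. In TRIM28 knockdown against PARP1 knockdown 8 were higher (8.08%, against 13.2% of all genes), 23 lower (23.2%, against 11.9%) and 68 did not pass, with a median of -0.19. HLA-F, HLA-B, HLA-E and TAP1 lay above these region medians in both knockdowns, as did HLA-C, while TAP2 and TAPBP lay below them. B2M on chromosome 15 and NLRC5 on chromosome 16 lie outside the region. B2M rose in both knockdowns, and NLRC5 passed in PARP1 knockdown but not in TRIM28 knockdown.

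Per library, the 9 genes summed to 0.568% ± 0.00732 of all counts in TRIM28 knockdown, 0.577% ± 0.0168 in PARP1 knockdown and 0.484% ± 0.0178 in control (SD, n = 3), with every knockdown library above every control library. Of 5 tested markers of renal carcinoma epithelium, the keratin genes KRT8 and KRT18 rose in both knockdowns and PAX8, CA9 and VIM passed in neither, with VIM at 0.08 in TRIM28 knockdown and -0.34 in PARP1 knockdown (log2 fold change, adjusted p = 0.0501). KRT18 stood at 210 ± 13.7 TMM-scaled FPKM in TRIM28 knockdown, 271 ± 41.9 in PARP1 knockdown and 142 ± 18.4 in control.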
